A study of Mus musculus with 6 samples.

Results

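The genes described here encode the 2 complexes of the kinase mTOR and their direct regulators in the day 1 mouse ovary. They are Mtor, Mlst8, Rptor, Akt1s1, Rictor, Deptor, Tsc1, Tsc2, Rheb and Rps6kb1, 10 genes chosen by name out of 25164 gene symbols in the deposited FPKM table, and all 10 were found there. RNA of whole ovaries was sequenced in 6 libraries. The 3 cKO libraries came from C57BL/6 mice at day 1 with the genotype hnRNPL flox/flox;Stra8-cre, in which floxed Hnrnpl is paired with a Cre transgene driven by Stra8, a gene of germ cells that enter meiosis. The 3 WT libraries came from C57BL/6 mice at day 1 labelled wild type, and the labels do not say whether they carried the floxed allele or the transgene. The protocol text of both groups speaks of a hormone challenge without naming it. The labels do not say whether each library is a different animal, so p-values measure the spread between these libraries only.

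mTOR is a kinase that sets cell growth by nutrient and growth factor supply. With Raptor (Rptor) it forms mTORC1, which drives translation through S6 kinase and the 4E-BP proteins and holds back autophagy, and with Rictor it forms mTORC2, which phosphorylates AKT. The TSC1-TSC2 complex keeps the GTPase RHEB inactive, and active RHEB switches on mTORC1 at the lysosome. In mouse oocytes, loss of Tsc1 or Tsc2 is known to activate the dormant primordial follicles, which form around birth. The series' title names the splicing of mTOR as a target of hnRNPL, a splicing regulator. The deposited values are 1 per gene and do not separate isoforms, so they show transcript level and not exon use. GENCODE M21 lists 4 transcripts of Mtor, of which 2 are protein coding, and the levels given here cannot tell them apart.

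The transcript starts of 4 genes are shown first: the kinase gene itself, the members with the most positive (Rheb) and the most negative (Rps6kb1) difference, and Sesn2, a pathway gene that passed the test after scaling. Each RefSeq window (GRCm38.p6) runs 5′ to 3′ on the strand of the gene, from 250 bases before the transcript start to 50 after it. Capitals mark any of 4 motifs on either strand: the CCAAT box (CCAAT), the E-box (CACGTG), the cAMP response element (TGACGTCA) and the C/EBP-ATF response element (TGATGNAA). The windows are chr4:148448332-148448631 (plus strand) for Mtor, chr5:24842312-24842611 (minus) for Rheb, chr11:86544758-86545057 (minus) for Rps6kb1 and chr4:132510407-132510706 (minus) for Sesn2.
Mtor: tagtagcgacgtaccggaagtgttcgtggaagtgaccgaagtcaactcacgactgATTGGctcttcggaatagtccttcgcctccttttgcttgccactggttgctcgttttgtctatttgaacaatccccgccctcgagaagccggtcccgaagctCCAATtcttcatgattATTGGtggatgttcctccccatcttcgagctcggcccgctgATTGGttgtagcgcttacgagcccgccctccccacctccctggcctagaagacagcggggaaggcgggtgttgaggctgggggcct
Rheb: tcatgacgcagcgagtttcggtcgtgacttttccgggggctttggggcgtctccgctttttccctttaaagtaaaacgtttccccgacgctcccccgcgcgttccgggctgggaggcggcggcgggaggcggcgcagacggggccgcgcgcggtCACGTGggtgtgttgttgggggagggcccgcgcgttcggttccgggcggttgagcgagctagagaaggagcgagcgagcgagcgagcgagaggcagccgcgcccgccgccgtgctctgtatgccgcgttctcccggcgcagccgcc
Rps6kb1: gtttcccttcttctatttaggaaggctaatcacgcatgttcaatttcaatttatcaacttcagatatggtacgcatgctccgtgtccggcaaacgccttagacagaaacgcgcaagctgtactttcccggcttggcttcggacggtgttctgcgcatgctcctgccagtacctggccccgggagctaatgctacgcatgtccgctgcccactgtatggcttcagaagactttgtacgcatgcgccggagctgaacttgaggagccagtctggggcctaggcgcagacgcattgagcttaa
Sesn2: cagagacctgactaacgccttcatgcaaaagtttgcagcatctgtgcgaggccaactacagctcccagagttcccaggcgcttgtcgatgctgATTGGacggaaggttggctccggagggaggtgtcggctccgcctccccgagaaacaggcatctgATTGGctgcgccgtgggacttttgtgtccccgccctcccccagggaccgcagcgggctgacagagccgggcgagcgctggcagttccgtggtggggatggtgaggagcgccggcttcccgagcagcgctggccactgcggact
The Mtor window held 4 CCAAT boxes, with first bases at -195, -93, -77 and -36, counting the transcript start as 0. The Rheb window held 1 E-box at -96 and no CCAAT box, the Sesn2 window held CCAAT boxes at -157 and -93, and the Rps6kb1 window held none of the 4 motifs. Of the 10 genes 9 had a window. CCAAT was present in 2 of these 9 (Mtor and Rictor), against 37.4% of all 32851 windows, and CACGTG in 1, against 7.15%. TGACGTCA and TGATGNAA were in 0 of the 9, against 1.79% and 3.97% of all windows. These are letter matches in a short window and say nothing of binding.

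Library facts bear on every value below. Summed FPKM was 335667 in cKO replicate 1 and 223845 to 246121 in the other 5 libraries, and short transcripts were higher in cKO replicate 1. Values were therefore also read after median-of-ratios scaling, which divides each library by its median ratio to the gene-wise geometric mean; the factor was 1.175 for cKO replicate 1 and 0.949 to 0.989 for the others. Depth, estimated from the smallest FPKM steps, was 7.2, 10.8 and 12.2 M fragments in cKO replicates 1, 2 and 3 and 14.4, 13.8 and 11.1 M in WT replicates 1, 2 and 3. Hnrnpl, the targeted gene, stood at 101, 81.5 and 85.2 FPKM in cKO and 104, 93.8 and 102 FPKM in WT (limma log2 fold change -0.17, SE 0.13, adjusted p = 0.571). After scaling it was 85.5, 84.2 and 87.5 in cKO and 105, 95.4 and 107 in WT, lower in all 3 cKO libraries but not past the threshold (log2 fold change -0.26, limma adjusted p = 0.15). Other cells of a whole ovary also express Hnrnpl, so this checks the labels weakly. Stra8 is listed at 0 in all 6 libraries. Ovarian markers were present, with Foxl2 at 73.8 ± 11.3 FPKM in cKO and 59.2 ± 1.44 FPKM in WT (SD, n = 3 each). Of the germ cell markers, Dazl averaged 27.8 ± 11.1 FPKM in cKO and 10.3 ± 1.44 FPKM in WT, Gdf9 2.61 ± 0.172 and 5.54 ± 1.47 FPKM, and Ddx4 4.8 ± 1.55 and 4.97 ± 0.638 FPKM in the same order. In all, 15 of 12442 tested genes passed (limma, adjusted p under 0.05), which is 0.121%; 6 were higher in cKO (0.0482%) and 9 lower (0.0723%). After scaling 161 passed (1.29%), 95 higher (0.764%) and 66 lower (0.53%).

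No difference between cKO and WT was detected in the gene-level transcript abundance of the mTOR complex genes. None of the 10 passed the test (limma with Benjamini-Hochberg adjustment over 12442 genes; 0 had an unadjusted p under 0.05, as had 14.2% of all tested genes), and none had cKO values apart from the WT values, against 22.6% of all tested genes. Fold changes are given as log2(FPKM + 1), which understates changes of low genes. Over the 10 genes they ran from -0.20 for Rps6kb1 to 0.26 for Rheb, with a median of -0.02, beside a median of 0.08 over all tested genes. A p that misses the threshold does not show equal levels, so each interval is given below. Most of the genes also varied less between libraries of a group than the median tested gene. The residual SD was 0.073 (Tsc2) to 0.175 (Rheb) on the log2 scale, and in 9 of the 10 it was under the median of all tested genes, 0.17. After median-of-ratios scaling it was under the median, 0.139, in 8 of the 10. Rptor (0.17) and Rps6kb1 (0.198) were then above it.

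Mtor, which encodes the kinase of both complexes, lies on chromosome 4 from 148448611 to 148557683 (GRCm38, plus strand) and has up to 58 exons. It stood at 7.5, 7.57 and 7.18 FPKM in cKO replicates 1, 2 and 3 and at 8.25, 6.87 and 7.72 FPKM in WT replicates 1, 2 and 3. The cKO values lay inside the WT range. The log2 fold change of -0.03 (SE 0.10) had a 95% interval of -0.26 to 0.20, that is 0.84 to 1.15 times on the FPKM + 1 scale (limma adjusted p = 0.901; exact two-sided permutation p = 0.8, where 0.1 is the smallest that 3 against 3 allow). Mlst8, the WD-repeat subunit of both complexes (chromosome 17, 24473551 to 24479078), stood at 5.46, 4.65 and 5.18 FPKM in cKO and at 5.49, 4.5 and 5.34 FPKM in WT. Its groups covered nearly the same range. The log2 fold change was -0.0023, with an interval of -0.26 to 0.25 (limma adjusted p = 0.993). Deptor, which encodes an inhibitor found in both complexes (chromosome 15, 55112317 to 55259271), stood at 6.66, 4.74 and 5.61 FPKM in cKO and 6.01, 6.22 and 6 FPKM in WT. The cKO values spread on both sides of a tight WT group: 5.67 ± 0.962 FPKM in cKO and 6.08 ± 0.123 FPKM in WT (SD, n = 3 each). Its interval was -0.38 to 0.19 (limma log2 fold change -0.09, adjusted p = 0.735).

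The subunits that define mTORC1 and mTORC2 also had overlapping groups. Rptor, the scaffold that brings substrates to mTORC1 (chromosome 11, 119602905 to 119899576), stood at 8.55, 8.47 and 9.62 FPKM in cKO and at 9.67, 8.77 and 7.53 FPKM in WT. The lowest and the highest value were both in WT, and the limma interval was -0.23 to 0.30 (log2 fold change 0.04, adjusted p = 0.896). Rictor, the scaffold of mTORC2 (chromosome 15, 6708379 to 6800401), stood at 9.86, 8.33 and 9.14 FPKM in cKO and 8.89, 8.85 and 8.2 FPKM in WT, with an interval of -0.16 to 0.29 (limma log2 fold change 0.07, adjusted p = 0.773). Akt1s1 encodes PRAS40, an mTORC1 inhibitor that AKT phosphorylates (chromosome 7, 44848991 to 44855421). It stood at 23.1, 18.7 and 17.1 FPKM in cKO and 20.6, 19.4 and 22 FPKM in WT. Only cKO replicate 1 was above the WT range and both other cKO libraries were below it, and the interval was -0.38 to 0.22 (limma log2 fold change -0.08, adjusted p = 0.789).

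**Figure D1:**
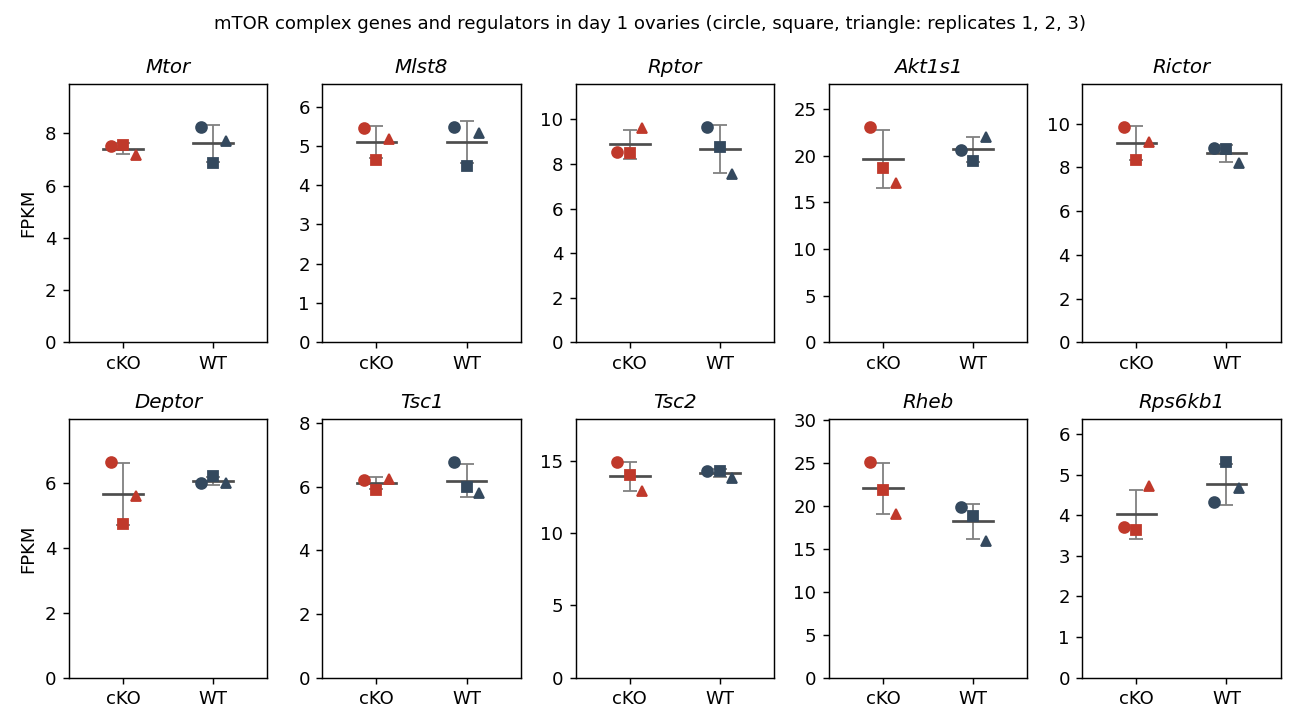
FPKM (y axis, linear, from 0) of the 10 genes in each library, cKO left and WT right; symbols mark replicates, horizontal lines the means and bars the SD (n = 3 each). The groups overlap in each of the 10 panels, and the highest Rheb value, 25.1 FPKM, is in cKO replicate 1.

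Among the regulators, Tsc1 and Tsc2 had differences close to 0, and Rheb and Rps6kb1 gave the largest differences, both short of the threshold. Tsc1, the stabilizing partner of the complex (chromosome 2, 28641228 to 28691167), stood at 6.22, 5.89 and 6.23 FPKM in cKO and 6.77, 5.99 and 5.8 FPKM in WT (limma log2 fold change -0.01, interval -0.23 to 0.21, adjusted p = 0.96). Tsc2, which holds the GTPase-activating domain (chromosome 17, 24595816 to 24632630), stood at 14.9, 14 and 12.9 FPKM in cKO and 14.3, 14.3 and 13.8 FPKM in WT. Its interval was -0.24 to 0.20 (limma log2 fold change -0.02, adjusted p = 0.927). Rheb, which encodes the GTPase that the TSC complex switches off (chromosome 5, 24802823 to 24842624), stood at 25.1, 21.9 and 19.1 FPKM in cKO and 19.9, 18.8 and 15.9 FPKM in WT. Both higher cKO values lay above the WT range, and cKO replicate 3 lay inside it. The means were 22 ± 2.98 FPKM in cKO and 18.2 ± 2.09 FPKM in WT (SD, n = 3 each), a log2 difference of 0.26 with an SE of 0.13 and an interval of -0.05 to 0.57 (limma adjusted p = 0.42; exact p = 0.2). The highest Rheb value was in cKO replicate 1, which held the highest value of 5 of the 10 genes. After scaling Rheb was 21.3, 22.6 and 19.6 in cKO and 20.2, 19.1 and 16.7 in WT, and the log2 fold change was 0.18 (limma adjusted p = 0.352). Without cKO replicate 1 it was 0.17, so that 1 library moved the difference by over 1.5 times; without WT replicate 3 it was also 0.17. Rps6kb1, which encodes S6 kinase 1, the translation kinase that mTORC1 activates (chromosome 11, 86498871 to 86544805), stood at 3.7, 3.64 and 4.72 FPKM in cKO and 4.32, 5.31 and 4.67 FPKM in WT. Replicates 1 and 2 of cKO were below every WT library and replicate 3 was not. The means were 4.02 ± 0.608 FPKM in cKO and 4.77 ± 0.503 FPKM in WT (SD, n = 3 each), a log2 difference of -0.20 with an SE of 0.12 and an interval of -0.49 to 0.08 (limma adjusted p = 0.478; exact p = 0.3). It was -0.30 without cKO replicate 3 and -0.14 without WT replicate 2, and no alternative brought either gene past the threshold (limma adjusted p from 0.251 to 0.765 for Rheb and from 0.263 to 0.759 for Rps6kb1).

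After median-of-ratios scaling 9 of the 10 log2 fold changes were below 0, with a median of -0.10 against 0.00 over all tested genes, and again 0 of 10 passed (limma; 0 with an unadjusted p under 0.05, against 18.9% of all tested genes). The cKO and WT values then did not overlap in 3 of 10, Akt1s1, Deptor and Tsc2, against 25.6% of all tested genes in either direction. All 3 were lower in cKO, against 13% of all tested genes, and none was higher, against 12.6%. Whether 3 of 10 departs from that background was not tested. Scaled Deptor was 5.67, 4.9 and 5.76 in cKO and 6.08, 6.33 and 6.32 in WT, a log2 fold change of -0.17 (limma adjusted p = 0.35). Scaled Tsc2 was 12.7, 14.4 and 13.2 in cKO and 14.4, 14.5 and 14.5 in WT, with cKO replicate 2 next to the WT values (log2 fold change -0.10, limma adjusted p = 0.49). Scaled Akt1s1 was 19.7, 19.3 and 17.6 in cKO and 20.9, 19.8 and 23.1 in WT (log2 fold change -0.16, limma adjusted p = 0.35). With a correction for transcript length and GC content the median over the 10 was -0.02 and the groups did not overlap in 1 of 10, against 27.1% of all tested genes. None of the 10 was called with that correction, against 2.03% of all tested genes, or with quantile normalization, against 1.9%.

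**Figure D2:**
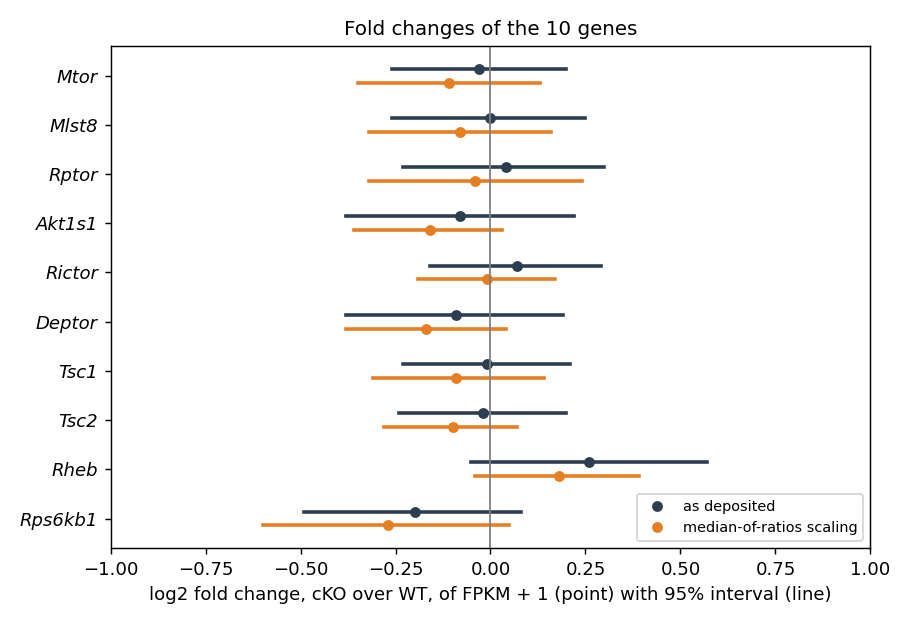
log2 fold change of FPKM + 1, cKO over WT (x axis; point), with its 95% interval (line) for the 10 genes, on the values as deposited (dark) and after median-of-ratios scaling (orange). Each of the 20 intervals spans 0; as deposited, Rheb at 0.26 and Rps6kb1 at -0.20 lie farthest from it in opposite directions, and after scaling Rheb is at 0.18 and Rps6kb1 at -0.27.

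Levels differed between the genes more than between the groups. FPKM is scaled to transcript length, so levels can be set side by side roughly. Effects of transcript length and GC content remain, and exons of some of the genes overlap those of other genes. Averaged over all 6 libraries, Akt1s1 (20.2 FPKM) and Rheb (20.1) were highest and did not separate, since each was higher in 3 of 6 libraries. Tsc2 followed at 14 FPKM, below Rheb and above Rictor in 6 of 6 libraries. Rictor (8.88) and Rptor (8.77) did not separate, and Mtor (7.52) was below Rptor in 5 of 6 libraries with overlapping ranges. Tsc1 (6.15) was below Mtor in 6 of 6 libraries and overlapped Deptor (5.87). Mlst8 (5.1) was below Deptor in 6 of 6 libraries, although their ranges overlapped, and Rps6kb1 (4.39) was lowest, below Mlst8 in 5 of 6. Against all tested genes the means ran from percentile 32.5 for Rps6kb1 to percentile 83.2 for Akt1s1, with Mtor at 51.2. At these depths the approximate fragment number, taken over the longest transcript, was 462 to 1018 per library for Mtor and 147 to 406 for Rps6kb1. Counting error alone would give a CV of about 4.7% and 8.2% at the lowest of these.

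Ratios within a library are free of that library's scaling, though not of effects of transcript length and GC content. Each of the 6 ratios tested had overlapping groups, and each had an exact two-sided permutation p of 0.3 to 0.8, or 0.8 after adjustment over the 6. Rptor to Mtor was 1.14, 1.12 and 1.34 in cKO and 1.17, 1.28 and 0.976 in WT. Rictor to Mtor was 1.31, 1.1 and 1.27 in cKO and 1.08, 1.29 and 1.06 in WT, a log2 difference of 0.11, the largest of the 6 (exact p = 0.3). It was 0.056 without cKO replicate 1, 0.057 without WT replicate 3 and 0.067 without WT replicate 1, but 0.19 without cKO replicate 2 and 0.20 without WT replicate 2. Rptor to Rictor, the balance of the mTORC1 and mTORC2 scaffolds, was 0.867, 1.02 and 1.05 in cKO and 1.09, 0.991 and 0.919 in WT, so the transcripts of both scaffolds were near parity in every library. Tsc1 to Tsc2 was 0.417, 0.422 and 0.484 in cKO and 0.474, 0.419 and 0.42 in WT, and both groups held 1 library apart from a close pair. Mlst8 to Mtor was 0.614 to 0.727 in cKO and 0.655 to 0.692 in WT, and Deptor to Mtor was 0.626 to 0.889 in cKO and 0.729 to 0.905 in WT. A ratio of transcripts is not a ratio of proteins.

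**Figure D3:**
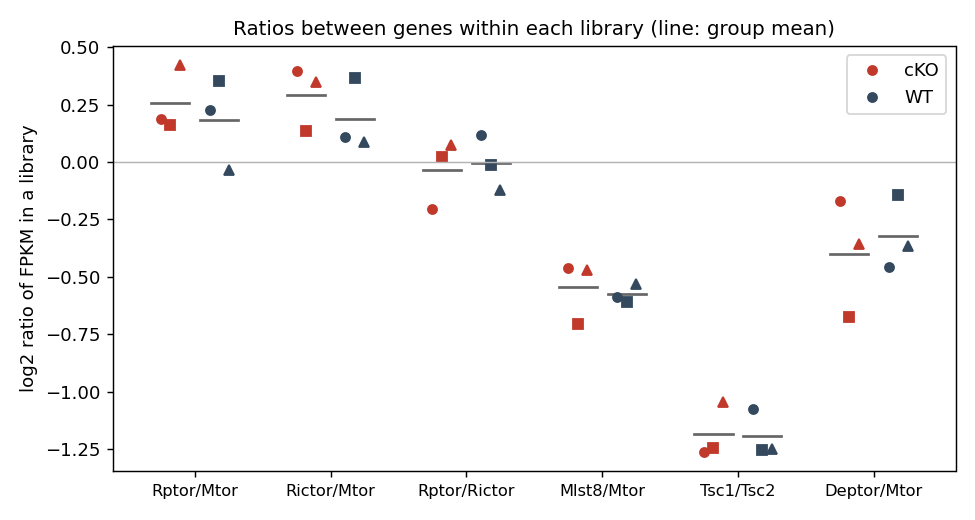
log2 ratio of FPKM between 2 genes within a library (y axis) for 6 pairs, cKO left and WT right of each pair; symbols mark replicates 1, 2 and 3 (circle, square, triangle) and lines the group means. The groups overlap for each pair, and Rptor to Rictor lies near 0 in all 6 libraries.

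The genes share positions and overlaps that bear on the counting. Mlst8 and Tsc2 lie 116.7 kb apart on chromosome 17, and Rptor and Rps6kb1 on chromosome 11 and Rictor and Deptor on chromosome 15 lie 33058.1 and 48311.9 kb apart. GENCODE M21 places exons of another gene over exons of 6 of the 10. The sources used here do not say whether the counting used strand, so reads in these stretches cannot be told apart. Pkd1 overlaps Tsc2 on the other strand by 693 bases and averaged 11.1 ± 1.46 FPKM in cKO and 12.5 ± 0.917 FPKM in WT (SD, n = 3 each). Bricd5 overlaps Mlst8 by 997 bases on the other strand and was under 0.001 FPKM in 6 of 6 libraries, and a value that low beside an expressed partner can be a failed estimate. Tbc1d17 overlaps Akt1s1 by 89 bases and Rnft1 overlaps Rps6kb1 by 155, at 9.07 and 3.44 FPKM in cKO and 9.41 and 3.12 FPKM in WT. Rptoros over Rptor and Gm9920 over Deptor stayed under 1 FPKM, as did Angptl7, which lies in introns of Mtor. Mir707, inside Akt1s1, is listed at 0 in 5 libraries and at 21.9 FPKM in WT replicate 3.

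Genes with the library pattern closest to Mtor were Ltbp3, a binding protein of latent TGF-beta, Katnal1, a katanin-like protein, and Tcp11l1. Likeness was the root mean square difference, over 6 libraries, in the deviation of log2(FPKM + 1) from each gene's mean. It was 0.031, 0.032 and 0.033 for these genes, with a median of 0.187 over all tested genes. Among the other 9 genes described here Tsc1 (0.068) and Mlst8 (0.071) were nearest to Mtor, and Rheb (0.204) and Rps6kb1 (0.203) were farthest. A gene that hardly varies is near to Mtor by this measure.

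The other genes of the pathway were described from 8 lists by role, 66 genes of which 62 were tested. These lists were chosen with earlier results of these data known, so the counts below are descriptions. None passed on the values as deposited (limma, 0 of 62 against 0.121% of all tested genes; 7 had an unadjusted p under 0.05, against 14.2%). The cKO and WT values did not overlap in 16 with higher and 4 with lower cKO values, against 15.5% and 7.03% of all tested genes. The median log2 fold change was 0.10 beside 0.08 for all tested genes. After scaling 1 passed, Sesn2, against 1.29% of all tested genes, and 13 and 7 did not overlap, against 12.6% and 13%.

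The largest differences among sensors and outputs belonged to Sesn2 and Eif4ebp1. Sesn2 encodes sestrin 2, a leucine sensor and stress-induced protein that restrains mTORC1 through GATOR2. It stood at 8.55, 6.86 and 6.14 FPKM in cKO and 4.58, 4.4 and 3.97 FPKM in WT. All cKO values were above all WT values, and the difference was 0.61 on the log2 scale, with an SE of 0.13 and an interval of 0.32 to 0.91 (limma adjusted p = 0.127). After median-of-ratios scaling Sesn2 was 7.28, 7.09 and 6.31 in cKO and 4.64, 4.48 and 4.18 in WT. It then passed, with a smaller difference (log2 fold change 0.54, limma adjusted p = 0.0387). Sesn2 passed with each of the 3 normalizations and under no other alternative, and over all alternatives its limma adjusted p ran from 0.0324 to 0.423. Its relatives did not pass: Sesn1 averaged 15.5 ± 0.699 FPKM in cKO and 17.9 ± 1.5 FPKM in WT, and Sesn3 at 22.2 ± 0.502 and 19.4 ± 0.374 FPKM in the same order (SD, n = 3 each). Of the 9 tested sensor genes 2 were higher and 2 lower without overlap, against 15.5% and 7.03% of all tested genes. Eif4ebp1 encodes 4E-BP1, the repressor of cap-dependent translation that mTORC1 inactivates. It stood at 37.3, 30.9 and 20.4 FPKM in cKO and 16, 15.2 and 16 FPKM in WT. The cKO libraries were all higher but spread widely, and the log2 fold change of 0.83 (SE 0.20) had an interval of 0.37 to 1.29 (limma adjusted p = 0.159, and from 0.0379 to 0.444 over the alternatives). It passed with quantile normalization (limma adjusted p = 0.048) and without cKO replicate 3 (log2 fold change 1.06, adjusted p = 0.0379). Its paralogs Eif4ebp2 and Eif4ebp3 had log2 fold changes of 0.11 and -0.16 (limma adjusted p = 0.739 and 0.593), and Eif4e, the cap-binding protein it blocks, 0.26 (adjusted p = 0.374), or 0.15 without cKO replicate 1.

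In the list of GATOR1, GATOR2, KICSTOR and the folliculin complex, which pass amino acid signals to the Rag GTPases, 0 of 14 passed, against 0.121% of all tested genes. Without overlap 6 had higher cKO values and 0 lower ones, against 15.5% and 7.03% of all tested genes. Fnip2, a partner of folliculin, stood at 5.9, 6.66 and 5.6 FPKM in cKO and 4.2, 4.08 and 4.13 FPKM in WT (log2 fold change 0.46, limma adjusted p = 0.133). Wdr24, a GATOR2 subunit, stood at 6.65, 6.45 and 5.86 FPKM in cKO and 4.72, 3.99 and 4.72 FPKM in WT (log2 fold change 0.42, limma adjusted p = 0.167). The other 4, chosen after their values were seen, were Seh1l, Nprl2, Fnip1 and Itfg2, with log2 fold changes of 0.49, 0.43, 0.34 and 0.29. Flcn itself had one of -0.23 (limma adjusted p = 0.393), also chosen after its value was seen. The list's median was 0.07, and after scaling 6 were higher and 2 lower without overlap, against 12.6% and 13% of all tested genes. No member passed under any alternative tried.

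The remaining lists held no gene past the threshold under any alternative. Of the Rag GTPases and Ragulator, which anchor mTORC1 to the lysosome, 9 were tested with a median of 0.20, and Lamtor2 and Rraga had the smallest p, with log2 fold changes of 0.44 and 0.23 (limma adjusted p = 0.354 and 0.45). Without cKO replicate 1 these were 0.23 and 0.13, and Rraga was 0.079 with the length and GC correction. Of the assembly proteins, Tti2 and Tti1 of the TTT complex, which stabilizes mTOR and related kinases, had 0.25 and 0.24 (adjusted p = 0.37 and 0.424), and Tti1 was at 0.13 without WT replicate 3. Tbc1d7, the third subunit of the TSC complex, and Rhebl1, the paralog of Rheb, had 0.38 and 0.33 (adjusted p = 0.452 and 0.528). In Rhebl1 and Tbc1d7 cKO replicate 1 was the highest library, and without it Rhebl1 was at 0.07 and Tbc1d7 at 0.13. Grb10, an adaptor that mTORC1 stabilizes to dampen insulin signalling, had -0.19 (adjusted p = 0.428) and Ulk1, the autophagy kinase, 0.07 (adjusted p = 0.748). Of the mTORC2 substrates, Sgk1 had 0.26 and Prkca -0.15 (limma adjusted p = 0.358 and 0.615). Akt1, whose FPKM was the highest of that list, had 0.08 (limma adjusted p = 0.766).

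**Figure D4:**
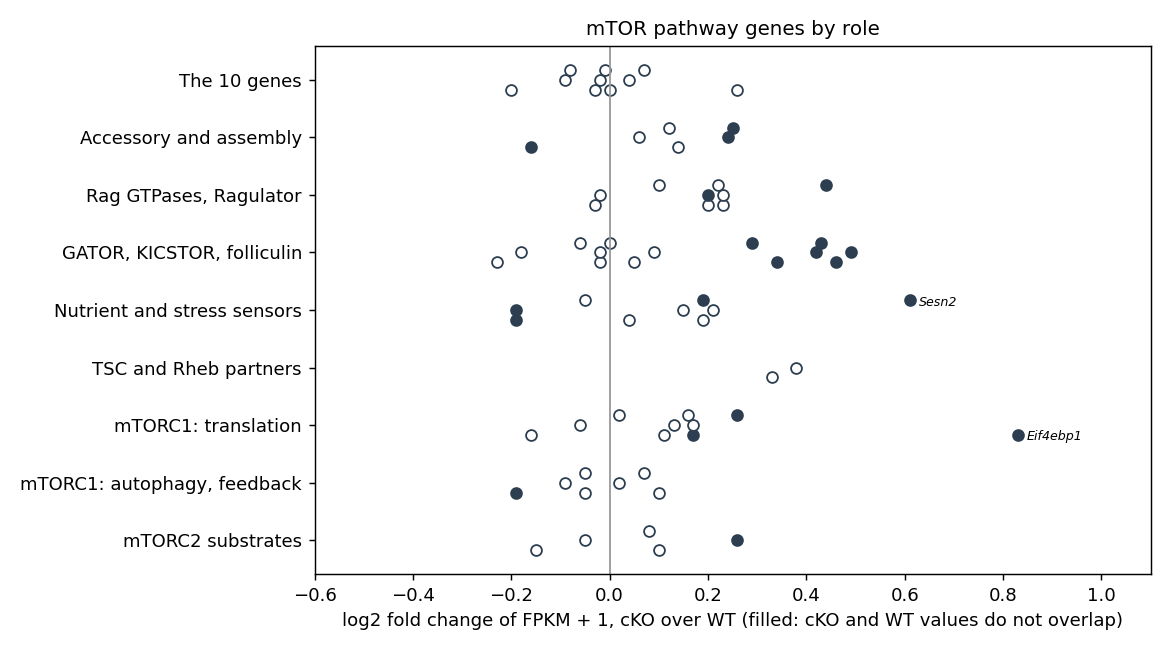
log2 fold change of FPKM + 1, cKO over WT (x axis), of each tested gene, by role (rows; small vertical offsets only separate points); filled points mark genes whose cKO and WT values do not overlap. The 10 mTOR complex genes lie between -0.20 and 0.26 and are all open, and Sesn2 at 0.61 and Eif4ebp1 at 0.83 lie farthest to the right.

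Summed cell type markers had separate ranges in cKO and WT for most lists, but not for macrophages and testis supporting cells. The macrophage markers summed to 8.36 to 9.98 FPKM in cKO and 9.64 to 11.9 FPKM in WT. The testis supporting markers summed to 8.13 to 11.1 FPKM in cKO and 7.95 to 9.34 FPKM in WT. In a whole ovary, fewer cells of a type and less RNA per cell cannot be told apart, and genes used by all cells sum over them. Of 8 germ cell markers 4 were higher (Dazl, Sycp3, Sohlh1 and Kit) and 1 lower (Gdf9) in cKO without overlap, against 15.5% and 7.03% of all tested genes. Their summed FPKM was 156 to 279 in cKO and 126 to 133 in WT. Ddx4, Figla and Nobox overlapped between the groups. After scaling 3 of the 8 were called higher and 1 lower, against 0.764% and 0.53% of all tested genes. The 5 surface epithelium markers summed to 87.4 to 130 FPKM in cKO and 145 to 166 FPKM in WT, with 1 of 5 called lower, against 0.0723% of all tested genes (Upk1b, limma adjusted p = 0.043), and 3 of 5 after scaling, against 0.53%. The 5 endothelial markers summed to 51.3 to 59.4 and 64.1 to 78.7 FPKM, the 4 pericyte and smooth muscle markers to 30.7 to 34 and 40.8 to 43.5 FPKM, and the 7 stroma markers to 765 to 840 and 1000 to 1050 FPKM, in cKO and WT in that order. Without overlap, 4 of 5 endothelial, 3 of 4 pericyte and 6 of 7 stroma markers were lower in cKO and 0 were higher. Of all tested genes 7.03% were lower and 15.5% higher without overlap. Of these 3 lists 0 members were called, against 0.121% of all tested genes. After scaling 0 endothelial, 1 pericyte and 1 stroma marker were called lower, against 0.53%. With the length and GC correction 2 endothelial, 1 pericyte and 3 stroma markers were called lower, against 2.03% called in either direction. The 8 granulosa markers summed to 289 to 373 FPKM in cKO and 271 to 277 FPKM in WT. Among them 0 were called, against 0.121% of all tested genes. Without overlap 3 were higher and 0 lower, against 15.5% and 7.03%. Of 3 tested macrophage, 4 erythroid and 3 testis supporting cell markers 0 were called either way, against 0.121% of all tested genes. The erythroid markers summed to 164 to 340 FPKM in cKO and 468 to 517 FPKM in WT, but each of the 4 overlapped between the groups. Hba-a1 ran from 82.7 to 287 FPKM in cKO and from 69.2 to 433 FPKM in WT. Hbb-bs stood at 16.1 FPKM in cKO replicate 1 and 8.53 FPKM in WT replicate 1. In every other library it was at most 0.0062 FPKM. Dmrt1, the fourth testis supporting marker, had a mean below the filter and was not tested. It stood at 2.21, 1.39 and 1.03 FPKM in cKO and 0.0673, 0 and 0 FPKM in WT. All its cKO values were above all WT values. The 3 tested markers of that list did not share this difference. Sox9 and Amh overlapped between the groups (log2 fold changes 0.03 and -0.03). Cyp26b1 was lower in cKO without overlap (log2 fold change -0.2), as were 7.03% of all tested genes. Dazl, Sycp3, Sohlh1 and Kit were higher in all 3 cKO libraries, as were Sesn2, Eif4ebp1 and the 6 GATOR, KICSTOR and folliculin genes. The part of cell composition in those values was not tested. The marker lists were chosen with earlier results of these data known, so their counts beside those of all genes are descriptions and not a test.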

How the data were processed

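RNA of whole day 1 ovaries was measured in 3 cKO and 3 WT libraries, grouped by sample title. The authors deposited 1 table of FPKM values per gene (fragments scaled to transcript length and library size). The submitters' processing notes list the mm10 build with HISAT2 2.2.1, featureCounts 2.0.6 and STAR 2.7.11a, and give no roles. The file name points to removal of duplicates, and no source used here names the FPKM program.

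The 12442 of 25164 genes whose mean reached 1 FPKM were tested on log2(FPKM + 1) with limma 3.58.1 in R 4.3.3 (intensity trend, two-sided, Benjamini-Hochberg, threshold 0.05). The main limma fit was tested on simulated data with independent noise, and the other steps were not. Exact permutation tests used scipy 1.17.1. Depth came from FPKM steps in 2437 genes with 1 transcript of at least 1500 bp, assuming fragments of 200 bp; 72.6% to 77.5% of the low values lay within 0.15 of a whole fragment. The CVs computed from these depths cover counting error only. The intervals given for log2 fold changes came from the limma fit and not from these depths. Annotation was GENCODE M21 (GRCm38), which gave length and GC content for 98.0% of tested genes.

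The genes and lists were chosen with earlier results of these data known. The rule for names took all 10 genes, the 2 smallest p of each pathway list and every called gene, the 3 genes most like Mtor, overlapping genes, Hnrnpl and Stra8. Alternatives were another pseudocount (0.1 FPKM), no filter, a filter at 5 FPKM, 3 normalizations, no trend, leaving out each library, and a block for replicate number. Protein sequences were not used here.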

Additional observations from a re-analysis of the deposited data

How the results depend on the processing

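Under the 14 alternatives tried, 0 of the 10 genes passed in any (limma). The count over all genes moved from 15 to 34 with a pseudocount of 0.1 FPKM, 5 without filter, 23 with a filter at 5 FPKM, 161 with median-of-ratios scaling, 236 with quantile normalization, 252 with the length and GC correction, 5 without trend and 2 to 89 without 1 library (89 without cKO replicate 1 and 74 without cKO replicate 3, but 2 to 6 without any other). With the replicate block 2 genes passed. The labels do not say whether equal numbers pair the libraries. Correlations of deviations were -0.01, 0.04 and 0.07 for same-numbered libraries and -0.07 to 0.03 for the other pairs. With 3 libraries a group these values cannot decide whether the numbers pair the libraries. Pathway genes called went from 0 to 1 with median-of-ratios scaling, 2 with quantile normalization, 1 with the length and GC correction and 0 to 1 without 1 library. Log2 fold changes near 0 changed sign: Rptor to -0.041 and -0.050 and Rictor to -0.014 and -0.027 with median-of-ratios and quantile scaling, Ulk1 to -0.0079 and -0.024, and Mlst8 to Mtor to -0.062 with the length and GC correction; the cause was not tested. Without 1 library the ranges were -0.094 to 0.023 for Mtor, -0.049 to 0.11 for Rptor, 0.013 to 0.12 for Rictor, -0.077 to 0.051 for Mlst8, -0.20 to 0.0091 for Akt1s1, -0.20 to 0.0083 for Deptor, -0.051 to 0.045 for Tsc1 and -0.070 to 0.029 for Tsc2, and for the ratios -0.033 to 0.16 (Rptor to Mtor), 0.056 to 0.20 (Rictor to Mtor), -0.090 to 0.054 (Rptor to Rictor), -0.011 to 0.11 (Mlst8 to Mtor), -0.059 to 0.068 (Tsc1 to Tsc2) and -0.19 to 0.058 (Deptor to Mtor). Rheb and Rps6kb1 kept their signs under each alternative that gave them a value; the filter at 5 FPKM left out Rps6kb1. With 3 libraries a group, the intervals on the deposited values reach from 0.71 to 1.49 times on the FPKM + 1 scale.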
